A study of Mus musculus with 6 samples.

Results

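Metallothioneins and the genes that sense and move zinc were followed in mouse dendritic cells cultured with or without DB2313. The 10 genes were chosen from the measured differences between these same libraries. They were Mt1, Mt2, Mtf1, Slc30a1, Slc30a5, Slc30a7, Slc39a1, Slc39a6, Slc39a10 and Slc39a14, and were 10 of 54532 annotated genes. The differences of the 10 genes are therefore given as a description and without p-values.

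RNA-seq was performed on 3 control and 3 DB2313-treated libraries of total RNA. DB2313 is a small molecule that the study used as an inhibitor of Spi1 (PU.1), a transcription factor of myeloid cells. The labels named dendritic cells grown in 1640 medium with fetal bovine serum, while the methods of the study name macrophages and CD8T cells for RNA-seq. The labels gave no dose, duration, strain, age or sex, and did not say whether libraries came from separate cultures, so errors and p-values measure the spread between these libraries, which may be technical.

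Metallothioneins are small cysteine-rich proteins that bind zinc and copper and keep the free metal low. Mtf1 encodes the transcription factor that senses zinc and binds metal response elements in the promoters of its targets, of which Mt1, Mt2 and Slc30a1 are well known. Slc30a genes encode ZnT transporters, which move zinc out of the cytosol, across the plasma membrane or into organelles. Slc39a genes encode ZIP transporters, which move zinc into the cytosol. In myeloid cells zinc is known to be shifted between these compartments during activation and defence against microbes.

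The upstream promoter sequences of Mt1, Mt2 and Slc30a1 are shown because these 3 genes were higher with DB2313 and are textbook targets of the zinc sensor, and that of Slc39a10 because it was lower. Bases are from RefSeq (build GRCm38.p6) and run 5′ to 3′ on the strand of the gene. Each stretch ends at or just before a RefSeq start, which is not always the first annotated base of the gene. The Mt2 start used, 94172618, lies before the annotated gene, which begins at 94172664. For Slc39a10 the stretch lies within the annotated gene, chr1:46807544-46892852, at an internal start. Capitals mark the core of the metal response element, TGCACNC or TGCGCNC, on either strand. The Mt1 stretch is chr8:94178839-94179081 on the plus strand, that of Mt2 is chr8:94172368-94172617 on the plus strand, that of Slc30a1 is chr1:191906531-191906766 on the plus strand, and that of Slc39a10 is chr1:46853619-46853868 on the minus strand.
Mt1: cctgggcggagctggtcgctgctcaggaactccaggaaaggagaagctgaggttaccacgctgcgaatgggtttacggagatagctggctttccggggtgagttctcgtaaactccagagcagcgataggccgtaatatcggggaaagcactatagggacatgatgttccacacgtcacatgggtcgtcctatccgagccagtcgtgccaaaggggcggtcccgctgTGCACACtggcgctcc
Mt2: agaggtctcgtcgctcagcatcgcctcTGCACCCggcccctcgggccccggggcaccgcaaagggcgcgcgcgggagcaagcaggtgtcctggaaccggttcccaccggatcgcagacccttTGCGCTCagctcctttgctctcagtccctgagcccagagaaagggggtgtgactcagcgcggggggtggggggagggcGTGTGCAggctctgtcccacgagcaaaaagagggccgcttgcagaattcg
Slc30a1: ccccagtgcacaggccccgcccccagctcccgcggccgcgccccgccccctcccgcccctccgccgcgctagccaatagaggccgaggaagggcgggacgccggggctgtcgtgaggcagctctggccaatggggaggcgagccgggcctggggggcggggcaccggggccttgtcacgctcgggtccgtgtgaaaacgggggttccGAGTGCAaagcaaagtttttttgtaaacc
Slc39a10: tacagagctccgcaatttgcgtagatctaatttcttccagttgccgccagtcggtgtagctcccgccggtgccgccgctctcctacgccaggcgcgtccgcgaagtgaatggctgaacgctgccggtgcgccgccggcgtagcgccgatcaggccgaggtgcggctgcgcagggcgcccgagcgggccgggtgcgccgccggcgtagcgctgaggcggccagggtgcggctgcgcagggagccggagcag

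Windows of 300 bp, from 250 bp before to 50 bp after the RefSeq start, were available for 8 of the 10 genes. The Mt2 window held 4 core matches, at positions -223, -128, -50 and 5 from the start. At least 4 matches were found in 0.517% of all 32851 promoter windows. Mt1 had 3 matches, at -23, 3 and 21, a number reached by 1.97% of windows. These positions are counted from 1 RefSeq start, whereas Mt1 has 3 annotated transcripts. Sequence more than 50 bp after that start was not searched, so any matches there are not counted. Slc30a1 had 2, at -43 and 31, a number reached by 7.11% of windows. Slc30a5 had 1 match, a number reached by 25.7% of windows, and the windows of Mtf1, Slc30a7 and Slc39a1 and both windows of Slc39a10 had 0. Matches on the 2 strands that overlapped were counted separately. Of the 24 Mt, Slc30a and Slc39a genes with a window, 4 held at least 3 matches, Mt1 and Mt2 among them. Neither Slc39a10 window lies at the first annotated base of that gene. A match is a run of letters and not a measured binding site, and its absence here concerns this window only.

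**Figure D1:**
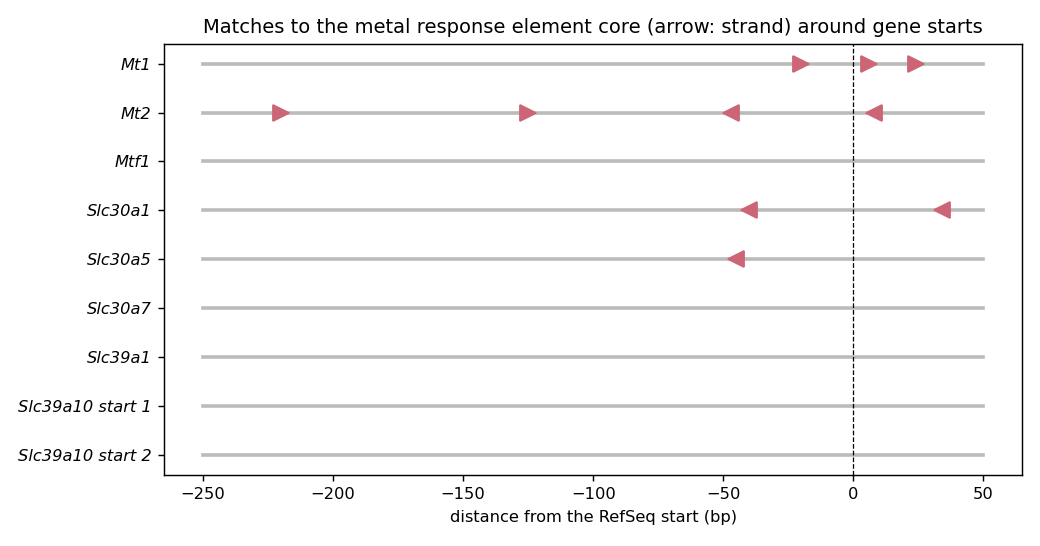
Position of each core match, in bp from the RefSeq start (dashed line), with an arrow for its strand, in the promoter windows of the genes described. Mt2 holds 4 matches, Mt1 holds 3 and Slc30a1 holds 2. Both Slc39a10 windows are empty, and neither lies at the first annotated base of that gene.

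Total counts were 16146743 to 19764677 per library, and edgeR tested the 14174 genes with enough counts. A gene was called higher or lower at a Benjamini-Hochberg adjusted p under 0.05 over all genes tested. Calls were made for 10.6% of the genes tested, with 4.66% higher and 5.94% lower with DB2313. Libraries of a group differed by more than counting noise, with a chi-square per degree of freedom of 4.77 to 5.28 between control pairs and of 7.43 to 17.7 between DB2313 pairs. The share of counts from mitochondrial genes was 2.06% to 2.41% in control and 1.46% to 1.57% in DB2313 libraries. Of the dendritic cell markers, 15 of 18 exceeded 10 CPM (the count scaled to a common library size) in control, whereas Xcr1 and Clec9a were near 1 CPM and Cd209a near 0. Markers of macrophages (14 of 16 over 10 CPM), neutrophils (12 of 12), T cells (9 of 11) and mast cells or basophils (8 of 11) were also present. The treated libraries were identified by columns that carry the name of Spi1, and each direction rests on that reading.

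Of the 10 genes, all of which passed the filter, 3 were called higher with DB2313 (Mt1, Mt2 and Slc30a1), against 4.66% of all genes tested. Only Slc39a10 of the 10 was called lower, against 5.94% of all genes. In these 4 genes no treated library fell within the range of the controls, which held for 27.4% of all genes tested. No reading of these shares is made, since the genes were chosen by this contrast. The median log2 fold change was -0.0030 over the 10 genes and 0.00082 over all genes tested. The 6 other genes had log2 fold changes from -0.20 to 0.06.

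Mt1 (ENSMUSG00000031765, chr8:94179082-94180327, plus strand) was the most abundant of the 10 genes. Control replicates 1 to 3 had 191, 180 and 211 CPM, and DB2313 replicates 1 to 3 had 900, 852 and 626 CPM. Each treated library lay above each control library, and DB2313 replicate 3 was the lowest of the treated ones. The control mean was 194 ± 15.8 CPM (SD, n = 3) and the DB2313 mean 793 ± 146 CPM (SD, n = 3), a ratio of 4.09. The fitted log2 fold change was 2.03 ± 0.11 (SE), the 24th highest of the 14174 genes tested. Behind these values were 2866 to 3364 counts in control and 10425 to 16994 counts with DB2313. Mt1 supplied 0.0177% to 0.0208% of all counts in control libraries and 0.0639% to 0.0892% in treated ones. By level per kilobase of gene length, Mt1 stood at the 97.7th percentile of 12373 protein-coding genes tested in control and at the 99.5th with DB2313.

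Mt2 (ENSMUSG00000031762, chr8:94172664-94173568, plus strand), the neighbour that ends 5513 bp before Mt1 begins, moved the same way at a far lower level. Control replicates held 17, 20 and 18 counts and DB2313 replicates held 153, 118 and 74 counts. As CPM these were 1.05, 1.25 and 1.13 in control and 9.29, 5.92 and 4.45 with DB2313. No treated library overlapped the controls, and DB2313 replicate 3 was again the lowest. The control mean was 1.14 ± 0.11 CPM (SD, n = 3) and the DB2313 mean 6.55 ± 2.48 CPM (SD, n = 3), a ratio of 5.73 and a fitted log2 fold change of 2.51 ± 0.31. The spread between treated libraries was 37.9% of the mean for Mt2 and 18.4% for Mt1.

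The level of Mt2 was uncertain for a reason of annotation. Of its 588 exonic bp, 432 bp (73.47%) overlap the antisense gene Gm45774, and the sources used here do not give the strand setting of the counting, so reads in the overlap may not have been assigned to either gene. Gm45774 itself had 2 to 6 counts in each library. Mt1 shares no exonic base with another gene. Mt1 counts per Mt2 count were 183, 143 and 187 in control and 96.9, 144 and 141 with DB2313, so the ratio overlapped between groups.

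The other metallothioneins are Mt3, described mainly in brain, and Mt4, described in stratified epithelia. Mt3 had 7, 13 and 15 counts in control and 22, 5 and 4 counts with DB2313. The groups overlapped, and the log2 fold change of -0.28 ± 0.65 was not called (edgeR, adjusted p = 0.847). Mt4 had 0 counts in all libraries, which allows up to 0.186 CPM (3 counts in the smallest library, counting error only). All 4 genes lie within 43131 bp on chromosome 8. Of the 3 metallothioneins tested, 2 were therefore called, both higher, against 4.66% of all genes tested, and both belong to the 10 chosen genes.

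Mtf1 (ENSMUSG00000028890, chr4:124802104-124849800, plus strand), the zinc sensor, was level between the groups. It had 47.0, 56.7 and 53.4 CPM in control and 49.4, 50.7 and 53.6 CPM with DB2313. The treated values lay within the control range, and the log2 fold change was -0.03 ± 0.09. Of its exons, 721 bp are shared with the opposite-strand gene 1110065P20Rik.

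**Figure D2:**
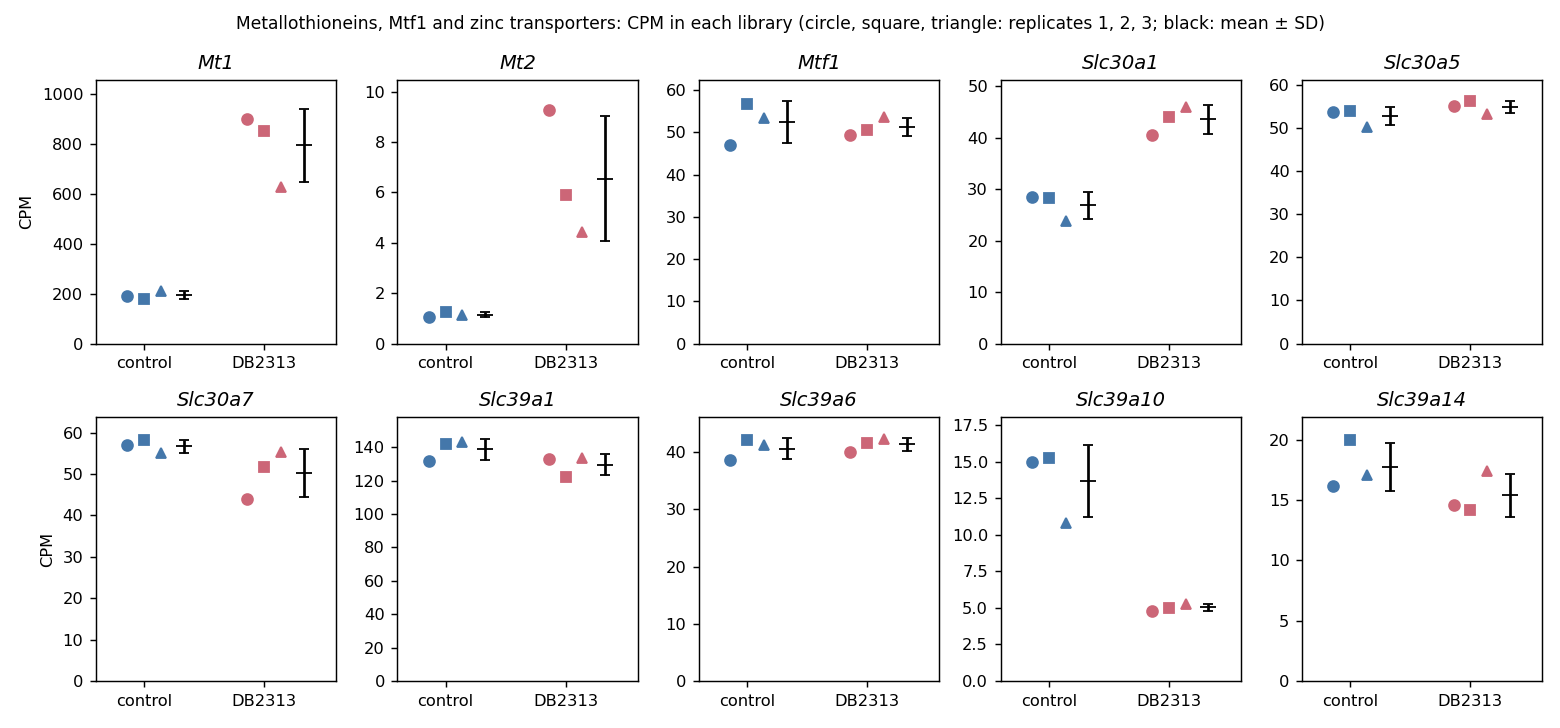
CPM of each of the 10 genes in the 3 control and 3 DB2313 libraries, with symbols for replicates 1 to 3 and black bars for the mean ± SD, each panel on its own linear axis from 0. Mt1, Mt2 and Slc30a1 sit higher in all DB2313 libraries and Slc39a10 sits lower, and the remaining panels overlap.

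Among the zinc exporters, Slc30a1 was higher with DB2313. Slc30a1 (ENSMUSG00000037434, chr1:191906767-191913247, plus strand) encodes ZnT1, the transporter of the plasma membrane that releases zinc from the cell. Controls had 28.5, 28.3 and 23.8 CPM, and treated libraries had 40.6, 44.1 and 46.1 CPM. The lowest treated library lay above the highest control library. The means were 26.9 ± 2.68 and 43.6 ± 2.80 CPM (SD, n = 3 each), and the log2 fold change was 0.70 ± 0.10. The antisense gene 1700034H15Rik overlaps 468 bp of its exons and had 0 to 11 counts per library, so it is small beside the 379 to 879 counts of Slc30a1.

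Slc30a5 and Slc30a7 encode ZnT5 and ZnT7, which load zinc into the early secretory pathway. Slc30a5 had 53.8, 54.1 and 50.4 CPM in control and 55.2, 56.2 and 53.3 CPM with DB2313, with a log2 fold change of 0.06 ± 0.08. For Slc30a7 the values were 57.1, 58.1 and 55.1 CPM in control and 43.9, 51.7 and 55.3 CPM with DB2313, with a log2 fold change of -0.17 ± 0.09. Neither was called, and the groups overlapped in both. Parts of both genes match other genes, with up to 155 bp of Slc30a5 shared with 28 other genes at an identity of at least 95%, and 1780 bp of Slc30a7 covered by the pseudogenes Gm43106 and Gm6649, which had 0 counts.

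Across the Slc30a family, 7 of 10 genes were tested and 2 were called, both higher, against 4.66% of all genes tested. The median log2 fold change of the family was 0.03. Besides Slc30a1, the called gene was Slc30a2, which encodes ZnT2, a transporter of vesicles. Slc30a2 had 25, 31 and 40 counts in control and 42, 110 and 78 counts with DB2313. The log2 fold change was 1.09 ± 0.32 (edgeR, adjusted p = 0.041), and DB2313 replicate 1 lay just above the highest control in CPM (2.55 against 2.51). This call was lost without control replicate 1 (adjusted p = 0.167), control replicate 2 (0.130), control replicate 3 (0.0583) or DB2313 replicate 2 (0.234), and with limma-voom (0.068), which leaves 1 called gene in the family. Slc30a4, Slc30a6 and Slc30a9 had log2 fold changes of 0.03, 0.0034 and -0.14 and were not called. Slc30a3 had 1 count in all libraries together, and Slc30a8 and Slc30a10 had 0.

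Summed over the Slc30a family, the controls averaged 264 ± 10.4 CPM (SD, n = 3) and the treated libraries 274 ± 17.6 CPM (SD, n = 3), with overlap. Within that sum the share of Slc30a1 was 10.5%, 10.6% and 9.44% in control and 15.8%, 16.0% and 15.8% with DB2313.

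Of the importers among the 10 genes, Slc39a10 was lower with DB2313. Slc39a10 (ENSMUSG00000025986, chr1:46807544-46892852, minus strand) encodes ZIP10, an importer of the plasma membrane whose transcription is known to be repressed by zinc through MTF1. It had 15.0, 15.2 and 10.9 CPM in control and 4.80, 5.02 and 5.29 CPM with DB2313. The groups did not overlap, and control replicate 3 was the lowest of its group. The means were 13.7 ± 2.47 and 5.03 ± 0.25 CPM (SD, n = 3 each), which is 0.367 of the control level. The log2 fold change was -1.44 ± 0.17, the 65th lowest of the genes tested, from 173 to 244 counts in control and 79 to 100 counts with DB2313. No exonic base of Slc39a10 is shared with another gene.

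The other importers among the 10 genes overlapped between the groups. Slc39a1, which encodes ZIP1 of the plasma membrane, had 132, 142 and 143 CPM in control and 133, 122 and 134 CPM with DB2313, with a log2 fold change of -0.10 ± 0.07. Slc39a6, which encodes ZIP6, had 38.6, 42.1 and 41.2 CPM in control and 40.1, 41.7 and 42.4 CPM with DB2313, with a log2 fold change of 0.03 ± 0.09. Slc39a14, which encodes ZIP14, a carrier of zinc and iron, had 16.2, 19.9 and 17.1 CPM in control and 14.6, 14.2 and 17.4 CPM with DB2313, with a log2 fold change of -0.20 ± 0.13. ZIP6 is the closest relative of ZIP10, so the pair differed in these libraries. The processed pseudogene Slc39a1-ps matches 973 bp of Slc39a1 at 97.739% identity and had 2 to 9 counts per library.

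In the Slc39a family, 13 of 14 genes were tested and 2 were called, both lower, against 5.94% of all genes tested. The median log2 fold change of the family was -0.02. Besides Slc39a10, the called gene was Slc39a3, which encodes ZIP3. Slc39a3 had 39.0, 38.1 and 38.1 CPM in control and 30.1, 33.0 and 27.4 CPM with DB2313. Its log2 fold change was -0.35 ± 0.10 (edgeR, adjusted p = 0.029). That call was lost without control replicate 1 (adjusted p = 0.109), control replicate 2 (0.102), control replicate 3 (0.0927) or DB2313 replicate 3 (0.0553), and in the fit with a replicate block (0.0598).

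Slc39a2, which encodes ZIP2, went the other way at a low level. It had 19, 7 and 0 counts in control and 39, 44 and 28 counts with DB2313. The groups did not overlap, and the log2 fold change of 1.94 ± 0.63 missed the threshold (edgeR, adjusted p = 0.064), although it passed under 7 of 15 alternatives. Slc39a5 had a log2 fold change of 0.88 ± 0.43 (edgeR, adjusted p = 0.235). Slc39a7 had one of -0.65 ± 0.34 (edgeR, adjusted p = 0.269), and 80.65% of its exonic bases are shared with Gm20427. Slc39a4, Slc39a8, Slc39a9, Slc39a11 and Slc39a13 had values from -0.08 to 0.03 and were not called. Slc39a12 was not tested, with 2, 7 and 11 counts in control and 1, 2 and 2 counts with DB2313.

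**Figure D3:**
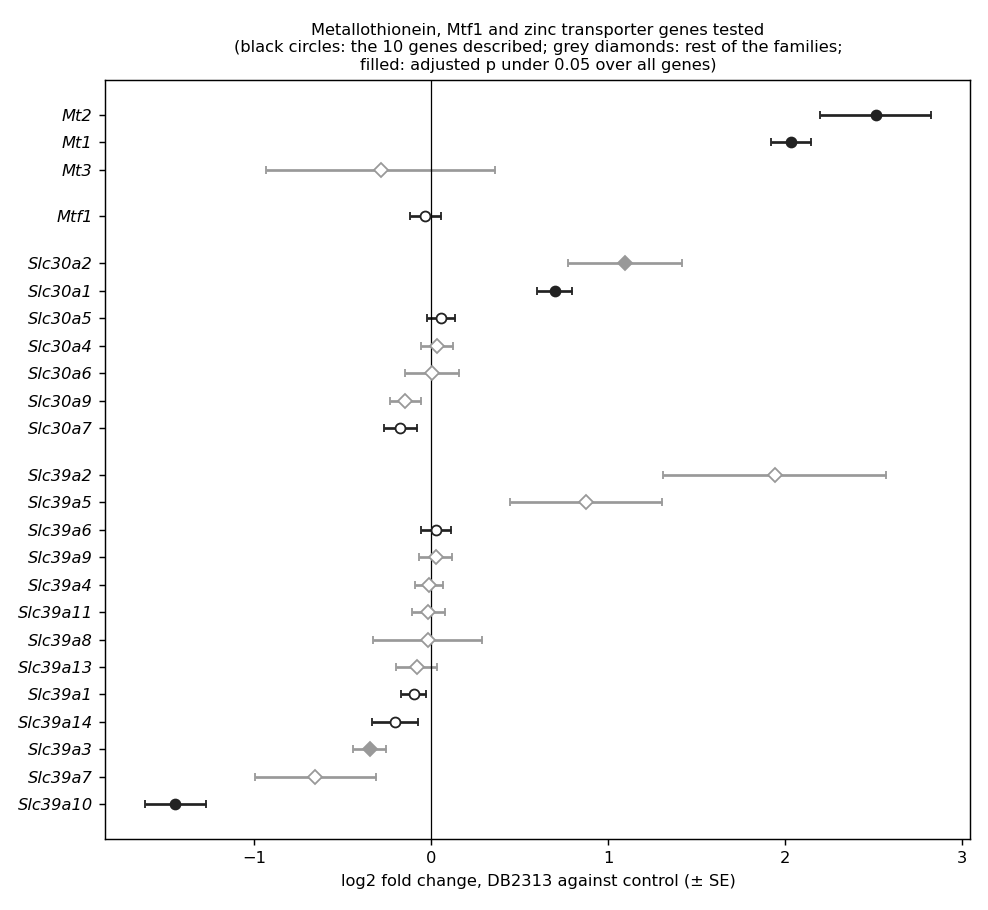
Log2 fold change (DB2313 against control, ± SE) of each metallothionein, Mtf1, Slc30a and Slc39a gene tested, with filled symbols for an adjusted p under 0.05 over all genes. Mt1, Mt2, Slc30a1 and Slc30a2 are called on the higher side and Slc39a10 and Slc39a3 on the lower side, and the rest are open symbols.

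The Slc39a family summed to 425 ± 9.75 CPM (SD, n = 3) in controls and to 396 ± 13.9 CPM (SD, n = 3) in treated libraries, and the 3 treated libraries lay below the 3 control libraries. Slc39a10 supplied 3.59%, 3.50% and 2.58% of that sum in control and 1.21%, 1.31% and 1.29% with DB2313. Slc39a1 supplied 32.7% in both groups. The ratio of summed importers to summed exporters was 1.54 to 1.67 in control and 1.39 to 1.55 with DB2313, so the groups overlapped. Slc30a1 counts per Slc39a10 count were 1.90, 1.86 and 2.19 in control and 8.46, 8.79 and 8.72 with DB2313. That ratio, in which depth cancels out, combines 2 genes chosen for their opposite differences and is given as a description.

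Levels of different genes were set side by side as CPM per kilobase of gene length. In control the order of the 10 genes was Mt1 (144 to 169 CPM per kb over the 3 libraries), Slc39a1 (55.6 to 60.6), Slc39a6 (9.48 to 10.3), Slc30a5 (6.91 to 7.41), Mtf1 (5.27 to 6.37), Slc30a1 (4.53 to 5.44), Slc30a7 (4.95 to 5.23), Slc39a10 (1.78 to 2.50), Mt2 (1.78 to 2.13) and Slc39a14 (1.53 to 1.89). Neighbours from Mtf1 to Slc30a7 overlapped, as did those from Slc39a10 to Slc39a14. With DB2313 the order began with Mt1 (503 to 723) and Slc39a1 (51.8 to 56.5), followed by Mt2 (7.56 to 15.8) and Slc39a6 (9.84 to 10.4), which overlapped. Slc30a1 (7.73 to 8.79) then lay above Slc30a5 (7.31 to 7.71), and Slc39a10 (0.787 to 0.868) came last. The place of Mt2 in both orders is uncertain. Its level was divided by all 588 bp, of which 432 bp overlap Gm45774 and may hold uncounted reads.

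Within the exporter family Slc30a4 had the highest mean level per length in control (11.0 CPM per kb), ahead of Slc30a5 (7.23) and Slc30a1 (5.12). Among the importers Slc39a1 (58.7) came first and Slc39a4 (19.5) second, and Slc39a10 (2.25) ranked eighth of 14 in control. Slc30a4 encodes ZnT4 of the endolysosomal membrane, and Slc39a4 encodes ZIP4, known best from the intestine.

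**Figure D4:**
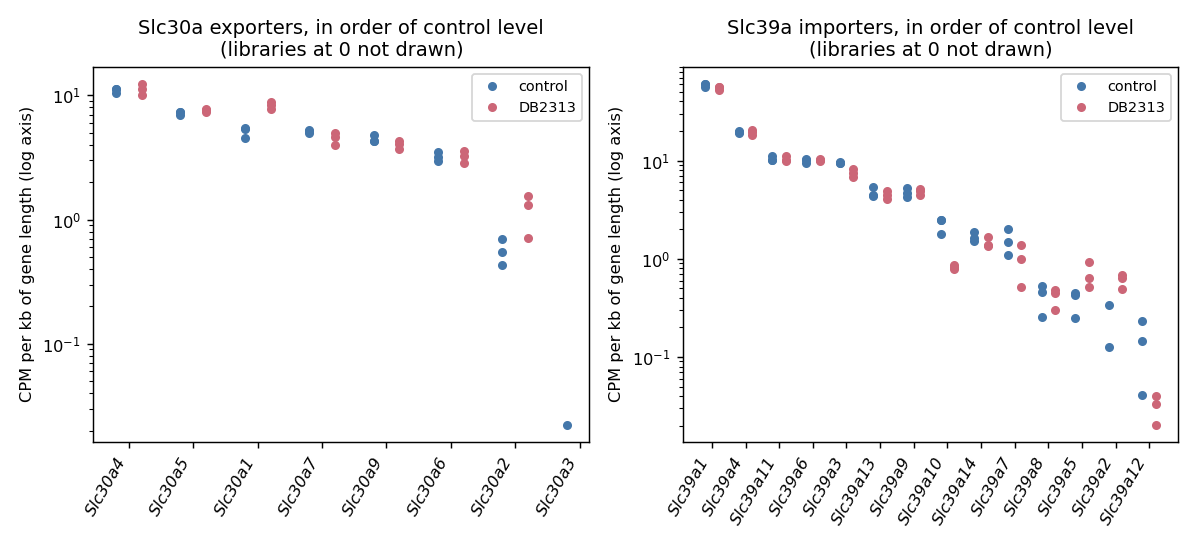
CPM per kb of gene length (log axis) of the Slc30a exporters and Slc39a importers in each library, in order of the control mean. Slc39a1 is the highest importer in both groups, Slc30a1 moves up past Slc30a5 with DB2313, and Slc39a10 moves down in all 3 treated libraries.

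Genes of metal and oxidative responses were counted from lists written with earlier results of these data known, so the counts are a description. Of 19 tested genes listed as metal-responsive or MTF1 targets, 9 were called higher and 2 lower, with a median log2 fold change of 0.31. Over all genes tested, 4.66% were called higher and 5.94% lower, with a median of 0.00082. Mt1, Mt2 and Slc30a1 are among the 9 higher genes and Slc39a10 is among the 2 lower ones, and all of these were chosen by this contrast. The remaining higher genes, named after their values were seen, were Txnrd1 (0.39), Gclm (0.39), Osgin1 (0.39), Selenow (0.36), Srxn1 (0.31) and Hmox1 (0.24), all as log2 fold changes with an edgeR adjusted p from 0.00182 to 0.0437. Txnrd1, Gclm, Srxn1, Osgin1 and Hmox1 are known as targets of the oxidative stress factor NRF2. Slc7a11, the cystine importer that is also an NRF2 target, was lower, with a log2 fold change of -0.48 ± 0.07 (edgeR, adjusted p = 6.1e-04). The 8 genes of the list that were not called included Nqo1 and Gclc, named after their values were seen. Nqo1 had a log2 fold change of -0.01 ± 0.13 (edgeR, adjusted p = 0.971) and Gclc one of 0.30 ± 0.10 (edgeR, adjusted p = 0.0695). The number called higher fell to 5 when control replicate 2 or DB2313 replicate 2 was left out, where Selenow, Hmox1, Srxn1 and Osgin1 were not called. Hmox1 was called in 7 of 15 alternatives, and was also lost with the gene-length offset, with the replicate block, with both, and without control replicate 1, control replicate 3 or DB2313 replicate 1 (adjusted p of up to 0.209). Selenow was called in 10 of 15, and was also lost with the replicate block, with block and offset together, and without control replicate 1 (adjusted p of up to 0.159). Txnrd1, Gclm and Slc7a11 were called in all 15.

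Copper handling genes were next, since metallothioneins also bind copper. Of 18 tested, 3 were called higher (Mt1, Mt2 and the ferroxidase ceruloplasmin, Cp) and 2 lower, with a median of 0.11. Over all genes tested, 4.66% were called higher and 5.94% lower. Cp had a log2 fold change of 0.71 ± 0.15 (edgeR, adjusted p = 0.00604). Sod3, the extracellular superoxide dismutase, fell by 1.39 ± 0.25 on the log2 scale (edgeR, adjusted p = 0.0020). Slc31a2, which encodes the copper carrier CTR2, fell by 0.31 ± 0.08 (edgeR, adjusted p = 0.0224), and its call was lost without any single control replicate or DB2313 replicate 2 and with a replicate block, at an adjusted p of up to 0.116. Without DB2313 replicate 3, 5 copper genes were called higher. The main copper importer Slc31a1 had a log2 fold change of 0.04 ± 0.08 and was not called, a gene named after its value was seen.

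Glucocorticoids and heat shock are other known inducers of metallothioneins. Of 18 glucocorticoid-responsive genes tested, 2 were called higher, Mt1 and Mt2 themselves, and 4 lower, with a median of -0.03. Over all genes tested, 4.66% were called higher and 5.94% lower. The lower genes were Cd163 (-2.71 ± 0.63, edgeR adjusted p = 0.0123), Klf9 (-0.53 ± 0.16, adjusted p = 0.0396), and, named after their values were seen, Sgk1 (-0.48) and Dusp1 (-0.30). Cd163 is also among the macrophage markers counted below, of which 9 of 15 tested were called lower. The number called lower was 1 without control replicate 1 or DB2313 replicate 2 and 2 without control replicate 3, with scaling by library totals or with a replicate block. The Klf9 call was lost in 7 of 15 alternatives, namely library totals, the replicate block and the omission of any control replicate or of DB2313 replicate 1 or 2 (adjusted p of up to 0.156). That of Dusp1 was lost with library totals, with the block and without control replicate 1, control replicate 3 or DB2313 replicate 2 (adjusted p of up to 0.207), and that of Cd163 without control replicate 1 or DB2313 replicate 2 (up to 0.0874). Sgk1 was called in all 15. Of 18 heat shock response genes tested, 0 were called by the main edgeR fit, DESeq2 or limma-voom. By that edgeR fit 3 of them had an unadjusted p under 0.05, and the median log2 fold change was 0.03. With the gene-length offset 1 was called higher, as was 1 without DB2313 replicate 3, and 1 was called lower without DB2313 replicate 1.

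Among 13 tested zinc-binding enzymes and zinc-binding regulators, 3 were called higher and 1 lower, with a median of 0.0022. Over all genes tested, 4.66% were called higher and 5.94% lower. Car2, a zinc-dependent carbonic anhydrase of the cytosol, had a log2 fold change of 0.71 ± 0.10 (edgeR, adjusted p = 3.7e-04). Znrf2, a RING-type ubiquitin ligase, had one of 0.55 ± 0.07 (edgeR, adjusted p = 1.2e-04). Lta4h, the zinc hydrolase that makes leukotriene B4 and was named after its value was seen, had one of 0.31, a call lost without control replicate 1, control replicate 2 or DB2313 replicate 2. Car4, the membrane-bound carbonic anhydrase, had 28, 15 and 19 counts in control and 6, 11 and 1 counts with DB2313, a log2 fold change of -1.92 ± 0.58 (edgeR, adjusted p = 0.0457). The Car4 call was lost when any single library was left out, with library totals and with the replicate block.

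The genes whose log2 CPM followed Mt1 most closely over the 6 libraries were Ube2l6 (Pearson r = 0.999), Arl6ip1 (0.997), Hpf1 (0.997), Gabarapl1 (0.996) and Tfdp1 (0.996), out of 11156 protein-coding genes. For Mt2 they were Wbp4 (0.996), Txndc12 (0.995), Tap1 (0.995), Trat1 (0.994) and Arl6ip1 (0.994). The 6 libraries form 2 groups and share a depth scaling, so r mainly reflects the difference between groups and the order of the 3 treated libraries. Ube2l6 had a log2 fold change of 1.04, and that of Arl6ip1 was 0.18, so a close pattern did not mean a change of the same size.

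Bulk RNA does not tell fewer cells of a type from less RNA per cell. Markers of several cell types differed between the groups, and their calls stand beside shares of 4.66% higher and 5.94% lower over all genes tested. Summed macrophage markers were 10319 to 11727 CPM in control and 9278 to 10175 CPM with DB2313, with 9 of 15 tested called lower and 2 higher. Summed dendritic cell markers were 17330 to 18027 CPM in control and 14607 to 17325 CPM with DB2313, with 3 of 17 lower and 2 higher. Summed neutrophil markers were 4841 to 5317 CPM in control and 5217 to 6505 CPM with DB2313, with 4 of 12 higher and 1 lower. Mast cell and basophil markers summed to 2523 to 2722 CPM and 2571 to 3081 CPM, with 2 of 10 higher. Their log2 fold changes were above 0 in 9 and below 0 in 1. The number called higher was 0 without control replicate 1, control replicate 3 or DB2313 replicate 2. It was 1 with a replicate block and without control replicate 2 or DB2313 replicate 1, and 3 without DB2313 replicate 3. T cell markers summed to 237 to 268 CPM and 240 to 346 CPM, with 1 of 11 higher. All 11 had a log2 fold change above 0 (median 0.21), as did 7108 of the 14174 genes tested. The T cell call was lost with a replicate block and without control replicate 2, control replicate 3 or DB2313 replicate 2. B cell markers summed to 33.5 to 39.3 CPM and 40.6 to 46.9 CPM. Fibroblast markers summed to 72.5 to 94.0 CPM and 76.7 to 100.4 CPM, with Col3a1, Dcn and Lum at 0, and erythroid markers to 3.58 to 4.96 CPM and 3.18 to 5.40 CPM. Without DB2313 replicate 2 the number of macrophage markers called lower was 5, and without DB2313 replicate 3, 7 neutrophil markers and 4 T cell markers were called higher. Without DB2313 replicate 1, 7 dendritic cell markers were called lower, and without control replicate 1 there were 2. That number was 7 with the gene-length offset and 6 without DB2313 replicate 3. It was 5 with DESeq2, without the filter, and with block and offset together. The part of these differences, and of the lower mitochondrial share with DB2313, in the values of the zinc genes was not tested.

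The 4 differences stood under each of the 15 alternative settings tried. The log2 fold change was 1.93 to 2.18 for Mt1, 2.18 to 2.72 for Mt2, 0.62 to 0.75 for Slc30a1 and -1.58 to -1.35 for Slc39a10, and each remained called in all 15. These ranges come from the same libraries and are no independent support.

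**Figure D5:**
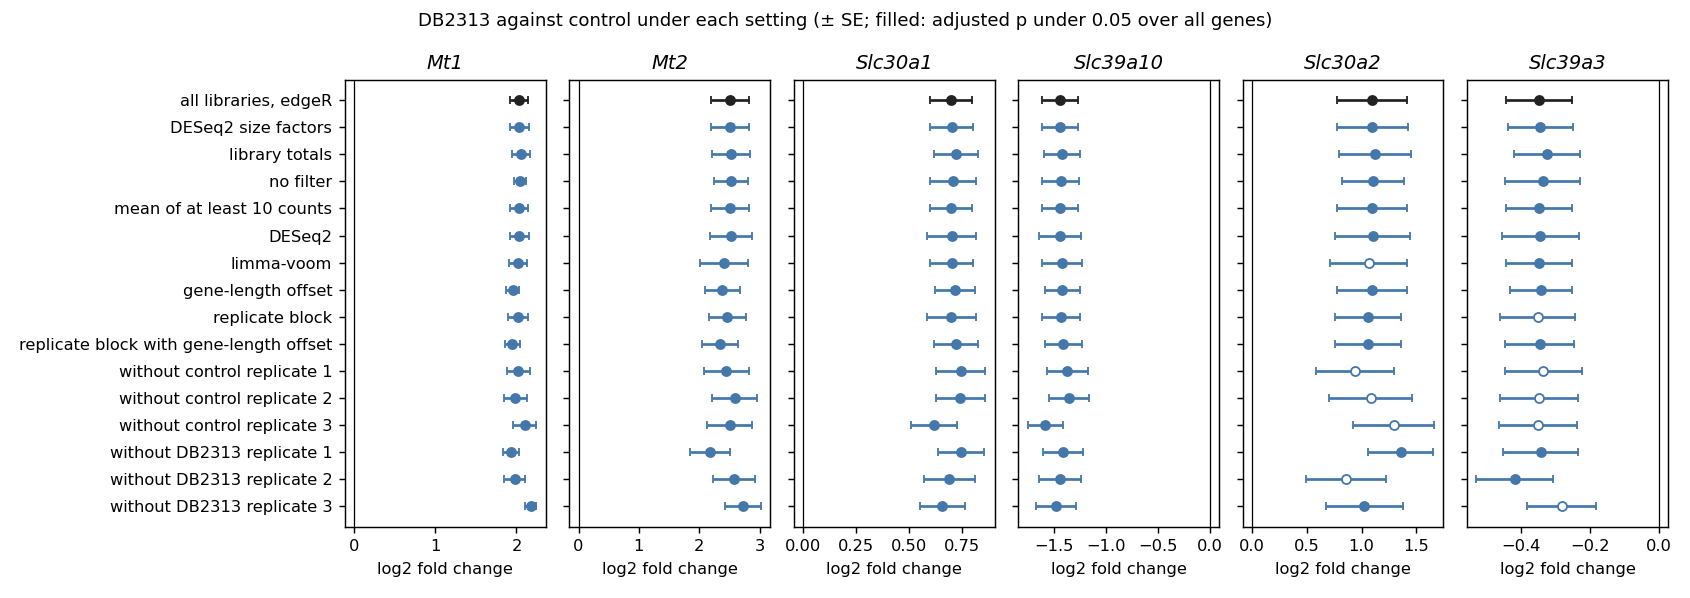
Log2 fold change (± SE) of the genes in each panel under the reported fit and the alternatives, with filled symbols for an adjusted p under 0.05. Mt1, Mt2, Slc30a1 and Slc39a10 keep their side of 0 and their call throughout, at 1.93 to 2.18, 2.18 to 2.72, 0.62 to 0.75 and -1.58 to -1.35.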

How the data were processed

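RNA-seq libraries of 3 control and 3 DB2313-treated samples were analysed. The table deposited by the authors held raw counts, not normalised, with a column per library and the length of each gene in bp. The processing notes of the submitters list CASAVA 1.8, HISAT2 2.0.5 and featureCounts 1.5.0-p3, whereas the methods of the study name LifeScope and DESeq2. The genome build and strand setting were not given in the sources used here. Coordinates are given as GRCm38, because start and end were identical for 98.33% of the 54409 identifiers also in GENCODE M21. Groups were taken from the treatment in the labels, and columns were matched by short name and number. The members and the 16 gene lists were chosen with earlier results of these data known.

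In R 4.3.3, counts were fitted with edgeR 4.0.16 (quasi-likelihood, TMM, filterByExpr) and Benjamini-Hochberg adjustment over 14174 genes, two-sided, with the group as the only term. The standard error is the absolute log2 fold change divided by the square root of F. CPM use TMM-scaled library sizes. Total counts were 16146743 to 19764677, and the biological coefficient of variation was 9.66%. No molecular identifiers are described, and floors cover counting error only. The script was tested on simulated data.

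Named genes were the 10 members, the rest of the Mt, Slc30a and Slc39a families, the extremes of each response list (2 called genes in each direction), and the 5 genes most like Mt1 and Mt2 (mean log2 CPM of at least 1, prior count 2). Alternatives were DESeq2 1.42.0 and its size factors, scaling by library totals, leaving out the filter, a mean count minimum of 10, limma-voom (limma 3.58.1), a gene-length offset (lowess, span 0.3), a replicate block, both together, and omission of each library. Copies were searched with blastn 2.17.0 (95% identity, 100 bp). No batch or date was labelled.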

Additional observations from a re-analysis of the deposited data

How the results depend on the processing

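The 3 calls of higher genes, the 1 of a lower gene and the 2 of metallothioneins stood in all 15 alternatives. Called Slc30a genes were 1 with limma-voom in place of 2, and 1 to 2 when a library was left out. Called Slc39a genes were 1 to 2 when a library was left out. They were 3 without the filter, with limma-voom, with the gene-length offset, and with block and offset together. The gene added in these 3-gene results was Slc39a2, called higher. The labels did not say whether replicate numbers pair the libraries. Deviations from the group means had correlations of 0.0035, -0.024 and -0.12 between libraries of the same number. These values cannot decide the question, because differences particular to single libraries can hide a pairing. The replicate block gave 1131 called genes in place of 1503, with 2 Slc30a calls and 2 Slc39a calls (Slc39a10 and, higher, Slc39a2 in place of Slc39a3). Over all genes, 739 to 2408 were called with a library left out.

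Of 24 genes followed over 15 alternatives, 312 of 360 values kept direction and side of the threshold, 10 lost and 7 gained a call, and 31 changed sign. The sign changes were all of uncalled genes. With library totals they were Slc39a4 (0.012), Slc39a8 (0.0058) and Slc39a11 (0.0088), with limma-voom Slc39a8 (0.025), with the gene-length offset Mtf1 (0.026), Slc30a6 (-0.016) and Slc39a8 (0.019), and with the replicate block and offset together Mtf1 (0.028), Slc30a6 (-0.020) and Slc39a8 (0.042). With a library left out, log2 fold changes ranged from -0.10 to 0.035 for Mtf1, -0.0091 to 0.058 for Slc39a6, -1.54 to 0.11 for Mt3, -0.043 to 0.11 for Slc30a4, -0.068 to 0.084 for Slc30a6, -0.046 to 0.026 for Slc39a4, -0.27 to 0.20 for Slc39a8, -0.040 to 0.11 for Slc39a9, -0.061 to 0.039 for Slc39a11 and -0.15 to 0.015 for Slc39a13. The cause was not tested. Depth limits the tested genes Mt2, Mt3, Slc30a2, Slc39a2 and Slc39a5, which had under 50 counts in every control library.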
